A study of Mus musculus with 12 samples.

Results

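Hearts of mice lacking *Gata4* in heart muscle were compared with the hearts of 6 control mice pooled from 3 lines, and the 9 arrays came from a set of 12. The members are all 35557 probesets of these 9 arrays, a probeset being a set of short probes combined into 1 log2 signal per transcript. The study asked which genes of the adult mouse heart depend on *Gata4* and which on *Gata6*. Total RNA of each whole heart was hybridised to its own Affymetrix gene ST array, and every mouse was labelled as 8 weeks old.

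The 3 *Gata4*-deleted mice carried a floxed *Gata4* gene and a cre transgene. Of the controls, 2 carried the cre transgene with wild-type *Gata4* and *Gata6*, 2 were *Gata4*-flox mice without cre and 2 were *Gata6*-flox mice without cre. No control line therefore matched the deleted mice in both the floxed gene and the transgene. The sample labels give the α-myosin heavy chain (MHCalpha) transgene as the source of cre and place the deletion late in heart development, whereas the methods of the study name a βMHC promoter, so the promoter could not be settled. Whole hearts hold cells other than cardiomyocytes, in which such a transgene is not active. The replicates were labelled biological, and no label says whether mice shared a litter or a day. The remaining 3 hearts were *Gata6*-deleted, with floxed *Gata6* and cre, and are used below only where stated.

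GATA-4 is a zinc-finger transcription factor that binds GATA motifs in promoters and enhancers of heart muscle genes. It acts with partners such as GATA-6, NKX2-5, MEF2C and serum response factor, and is needed for heart development and for the growth of the adult heart under load. Adult mouse ventricle uses mainly α-myosin heavy chain (*Myh6*), while β-myosin heavy chain (*Myh7*) belongs to the fetal and stressed heart.

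The deposited values were comparable between arrays, with medians of 5.61 to 5.66 and correlations of 0.979 to 0.991 between pairs of arrays. All 12 cardiomyocyte markers were measured and none passed the test (median log2 difference -0.05). Markers of skeletal muscle (0 of 12), lung (0 of 7), endothelium (0 of 17), fibroblasts and matrix (0 of 26) and smooth muscle and pericytes (0 of 12) also had no member that passed. Of all 19938 named genes only 39 passed higher and 38 lower, so 0 in lists this short is no check of cell content. In fibroblasts and matrix 2 members lay above every control and 0 below, and in smooth muscle and pericytes likewise 2 and 0. Macrophage markers, described below, also had none that passed, but all 16 were below 0. The *Gata4* probeset itself read 9.24, 9.18 and 9.16 in the deleted hearts, and the controls ran from 8.97 to 9.26 with a median of 9.14. These groups overlapped, with a difference of 0.07 (SE 0.08, limma, adjusted p = 0.826), so the array signal of the targeted gene gave no check of the label. The study's separate qRT-PCR reported less *Gata4* mRNA in *Gata4*-deleted hearts than in *Gata4* floxed hearts. No source used here says where in *Gata4* the probes lie relative to the deleted part. The *Gata6* probeset also overlapped (8.72, 8.82 and 8.86 against 8.69 to 9.09).

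*Gata4*-deleted hearts had more mRNA of the muscle genes *Myh7*, *Myot*, *Neb* and *Fhl1*, of the prostaglandin F receptor *Ptgfr* and of the glycogen primer *Gyg*. They had less mRNA of the prostaglandin D synthase *Ptgds*, the growth factor *Fgf16*, the glycerol phosphate dehydrogenase *Gpd1*, the phosphodiesterase *Pde1c* and the transcriptional coactivator *Myocd*. At an adjusted p under 0.05 (limma, Benjamini-Hochberg over all probesets), 98 of 35557 probesets passed (0.276%), 47 of them higher (0.132%) and 51 lower (0.143%). They came from 80 named genes, 41 higher and 39 lower, and 12 probesets had no gene symbol of their own. Differences ran from 0.37 on the log2 scale upwards with a median size of 0.68, and 20 were over 1 on that scale, 13 higher and 7 lower.

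The 3 deleted hearts lay outside the range of the 6 controls in all 98 of these probesets. Passing and lying outside the range come from the same values, so neither is separate support for the other. Over all probesets, 2059 were outside the range (5.79%), 887 above (2.49%) and 1172 below (3.3%), so 1961 probesets were outside the range without passing. At an unadjusted p under 0.05, 3348 probesets passed (9.42%). Of 3 hearts against 6 there are 84 splits, and the smallest two-sided exact permutation p for 1 probeset is 0.0238. The count fell to 24, 29 and 30 without *Gata4*-deleted heart 3, 2 and 1, and to 58, 62 and 58 without cre heart 2, *Gata4* floxed heart 2 and *Gata6* floxed heart 2. Each gene that passed was given by its brightest passing probeset, and the 12 genes ranked highest and the 12 ranked lowest in this way, called the 24 ranked genes here, are described below with members of gene lists and some genes chosen after their values were seen. *Prune2* was ranked by its brighter probeset at -0.74 and so is not among the 24, although its other probeset was at -1.08. The plot of all probesets shows where the named genes lie.

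**Figure D1:**
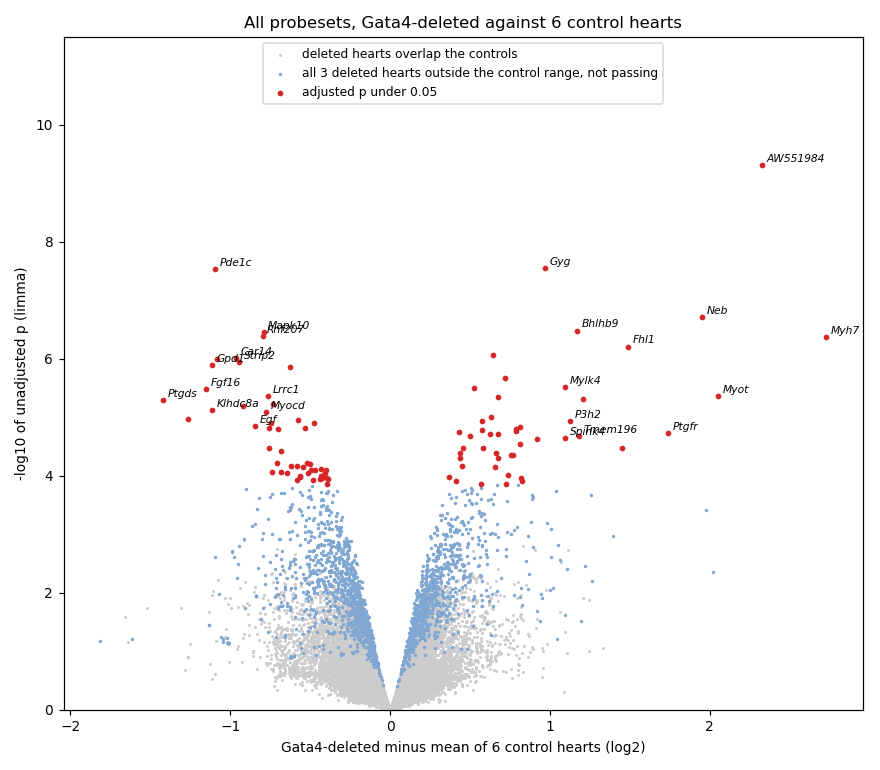
Each point is 1 of 35557 probesets, with the log2 difference between the mean of 3 Gata4-deleted hearts and the mean of 6 control hearts on the x axis and -log10 of the unadjusted limma p on the y axis. Red points passed (98), blue points had all 3 deleted hearts outside the control range without passing (1961), and AW551984 and Gyg stand highest on the right and Pde1c on the left.

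The pooled controls held 3 mouse lines, and 135 probesets (0.38%) differed among those lines by an F test. None of the 98 was among them. The pooled fit counts differences between lines as spread, so such probesets pass less easily, and this is no check that the lines were alike. The F test count ran from 10 to 314 when arrays were left out in turn, lowest without *Gata4* floxed heart 2 and highest without *Gata6* floxed heart 1.

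The gene with the largest rise was *Myh7*, β-myosin heavy chain. It read 12.18, 12.50 and 12.68 in the deleted hearts, and the controls ran from 9.22 to 10.25 with a median of 9.62. Every deleted heart was above every control, by at least 1.94. The difference of 2.73 (SE 0.22, 6.64-fold, limma, adjusted p = 0.00187) was 2.78 against cre hearts, 2.83 against *Gata4* floxed hearts and 2.58 against *Gata6* floxed hearts. *Myh6*, α-myosin heavy chain, read 13.14, 13.11 and 13.09, and overlapped with its control range of 13.13 to 13.26 (-0.07, adjusted p = 0.724). The miRNA gene of the *Myh6* locus, *Mir208a*, was below every control without passing (-0.59, adjusted p = 0.273). *Myh7b*, a slow-muscle myosin gene, was likewise below all controls without passing (-0.42, adjusted p = 0.24), and its miRNA gene *Mir499* overlapped (-0.21, adjusted p = 0.722).

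The plot of single hearts shows these separations for 12 of the named genes.

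**Figure D2:**
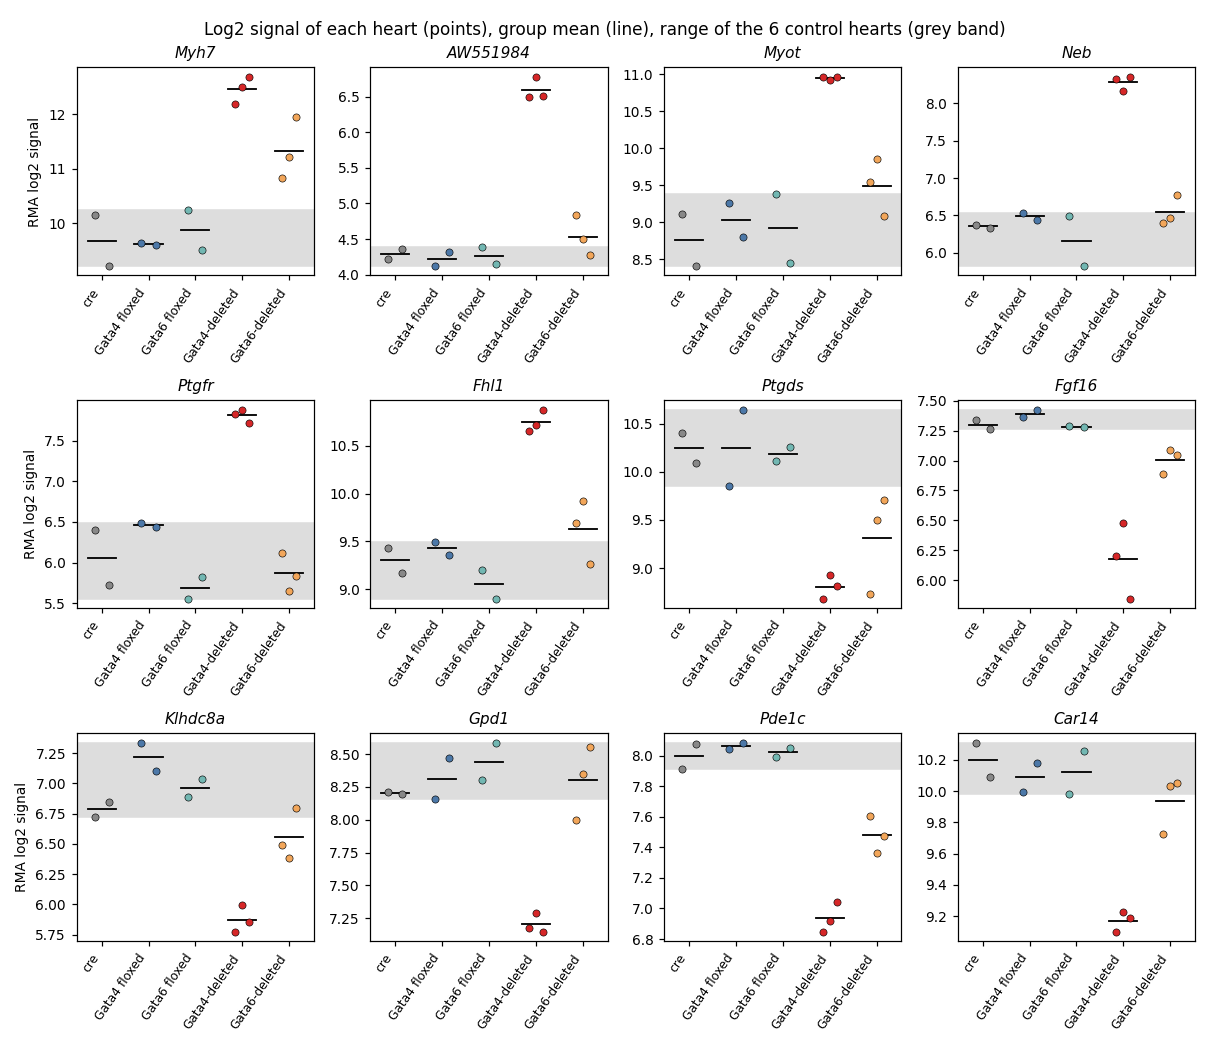
Each panel is 1 gene, with the RMA log2 signal of every heart as a point, the group mean as a black line and the range of the 6 control hearts as a grey band. The 3 Gata4-deleted hearts (red) lie above the band in Myh7, AW551984, Myot, Neb, Ptgfr and Fhl1 and below it in Ptgds, Fgf16, Klhdc8a, Gpd1, Pde1c and Car14. Gata6-deleted hearts (orange) are shown for comparison.

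Among the ranked genes that rose were some whose proteins lie in the sarcomere or its Z-disc, the plate that anchors thin filaments. *Myot* encodes myotilin, a Z-disc protein of striated muscle. It read 10.97, 10.93 and 10.97 in the deleted hearts against 8.41 to 9.39 (median 8.96) in the controls. The deleted hearts were close to each other and all above the controls, with a difference of 2.05 (SE 0.22, 4.15-fold, limma, adjusted p = 0.00723). *Neb*, nebulin, the giant protein of skeletal muscle thin filaments, read 8.33, 8.16 and 8.35 against 5.82 to 6.53 (median 6.41). All deleted hearts were above all controls, and *Gata6* floxed heart 2 alone gave the low end of the control range. The difference was 1.95 (SE 0.15, 3.87-fold, adjusted p = 0.0017).

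*Fhl1*, a LIM-domain protein bound to the sarcomere, read 10.66, 10.72 and 10.88 against 8.90 to 9.49 (median 9.28). No deleted heart reached the control range, and the difference was 1.49 (SE 0.13, 2.81-fold, adjusted p = 0.00243). *Mylk4*, a myosin light chain kinase, read 11.57, 11.42 and 11.46 against 10.11 to 10.61 (median 10.39), again above every control, with a difference of 1.10 (SE 0.11, 2.14-fold, adjusted p = 0.0061). *Tnnt1*, slow skeletal troponin T, read 7.78, 7.64 and 8.19 against 6.88 to 7.25 (median 7.01). It was above every control by at least 0.38 but passed narrowly (0.83, SE 0.13, adjusted p = 0.0455), and lost the call in each of the 9 fits that left out 1 array (adjusted p up to 0.167, without *Gata4*-deleted heart 1).

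Of the 31 measured genes of the sarcomere and Z-disc list, 2 passed higher (*Neb* and *Tnnt1*) and 0 lower, with 4 above and 3 below every control. Their median difference was -0.03, beside 0.01 over all 19938 named genes, of which 39 passed higher, 38 lower and 6.9% lay outside the control range. The genes below every control without passing were *Myom2* (-0.45, adjusted p = 0.298), *Csrp3* (-0.26) and *Tcap* (-0.24). Of 14 genes of the cardiac stress and fetal program, 2 passed higher (*Myh7* and *Fhl1*) and 0 lower (median -0.01). *Acta1* (0.68, adjusted p = 0.134) and *Ccn2* (0.88, adjusted p = 0.103) were above every control without passing, and the natriuretic peptide genes *Nppa* (-0.42, adjusted p = 0.613) and *Nppb* (-0.03, adjusted p = 0.981) overlapped.

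Several of these genes are best known from skeletal muscle, so a list of skeletal muscle markers is given beside them. Of these 12 markers 0 passed, the median difference was 0.06, and 2 (*Myh2* and *Cacna1s*) were above every control. This put 16.7% of them outside the control range, beside 6.9% of all named genes. Their mean level was 5.18 to 5.30 in the controls and 5.25 to 5.38 in the deleted hearts. Of the 12, 11 were above 0, up to 0.31 for *Cacna1s*, and *Mylpf* was the lowest at -0.02. Of all 19938 named genes, 10510 were above 0. *Casq1*, skeletal calsequestrin, was above every control in all 3 deleted hearts (10.86, 10.90 and 10.24 against 7.37 to 10.09), but the controls were spread widely and it did not pass (2.02, SE 0.54, adjusted p = 0.246). *Mybpc1*, slow skeletal myosin-binding protein C, passed (0.68, SE 0.10, adjusted p = 0.0279), as did the muscle transcription factor genes *Six4* (0.72, adjusted p = 0.00478) and *Tbx15* (0.73, adjusted p = 0.0494). *Mybpc1* and *Tbx15* each lost the call in 8 of 9 fits that left out 1 array (adjusted p up to 0.105 and 0.24), and *Six4* in none.

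Sequences around the start sites of *Myh7*, *AW551984*, *Ptgfr* and *Fhl1*, among the genes that rose most, were examined because GATA-4 binds a known short motif. *Myot* and *Neb* rose more than *Ptgfr* and *Fhl1* but gave no window to this search. The windows, 300 bases from 250 before to 50 after a RefSeq start site (GRCm38.p6), were searched on both strands for AGATAA or else AGATAG, and for TGATAA or else TGATAG. The letters were found in the first window of *Fhl1* (chrX:56779433-56779732, plus strand), in capitals, as TTATCA, and in neither of 2 windows of *Myh7*, whose first (chr14:54994577-54994876, minus strand) is printed without capitals.
Fhl1: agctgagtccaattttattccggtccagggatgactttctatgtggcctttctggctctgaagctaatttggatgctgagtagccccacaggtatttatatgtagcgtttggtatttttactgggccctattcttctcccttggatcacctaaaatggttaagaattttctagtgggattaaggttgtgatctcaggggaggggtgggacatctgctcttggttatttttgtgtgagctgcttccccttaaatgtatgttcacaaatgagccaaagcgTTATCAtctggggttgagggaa
Myh7: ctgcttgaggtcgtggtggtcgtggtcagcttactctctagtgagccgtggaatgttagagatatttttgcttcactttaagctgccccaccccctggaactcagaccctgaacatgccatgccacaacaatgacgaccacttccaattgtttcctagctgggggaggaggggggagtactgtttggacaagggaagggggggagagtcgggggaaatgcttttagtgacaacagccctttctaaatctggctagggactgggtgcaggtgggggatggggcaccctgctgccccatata
The motif was also in the third of 3 windows of *AW551984* and not in the window of *Ptgfr*. It stood in 29.8% of all 32851 windows and in at least 1 window of 33.0% of genes, against 12 of the 53 genes that passed and had a window (22.6%), 8 of 28 higher and 4 of 25 lower. A match is a description of these letters and not a site of binding.

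*AW551984* had the smallest p of all probesets. It read 6.49, 6.78 and 6.50 in the deleted hearts against 4.12 to 4.39 (median 4.27). The controls lay close together and every deleted heart was above them by at least 2.11, with a difference of 2.33 (SE 0.09, 5.02-fold, limma, adjusted p = 1.75e-05). The deposited values carry no detection call, so whether its control signal was above background is not known here.

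Among receptors and enzymes of signalling, genes moved in both directions. *Ptgfr* encodes the receptor for prostaglandin F2α, which is coupled to calcium release. It read 7.83, 7.88 and 7.72 against 5.55 to 6.48 (median 6.11), above every control, and the difference was 1.74 (SE 0.22, 3.35-fold, adjusted p = 0.0145). *Pde1c*, a calmodulin-dependent phosphodiesterase that breaks down cAMP and cGMP, read 6.85, 6.92 and 7.04 against 7.92 to 8.09 (median 8.05). All deleted hearts were below a narrow control range, with a difference of -1.09 (SE 0.07, adjusted p = 0.000341). *Pde3a*, the cGMP-inhibited phosphodiesterase, was also below every control (-0.56, SE 0.09, adjusted p = 0.0434), as was *Agtr1a*, the type 1 angiotensin receptor (-0.52, SE 0.08, adjusted p = 0.0336). *Pde3a* lost the call in each of 9 fits with 1 array left out (adjusted p up to 0.231) and *Agtr1a* in 8 (up to 0.167), both including each deleted heart. Of 21 receptors and phosphodiesterases, 1 passed higher and 3 lower, with a median of -0.03 and 4 above and 5 below every control. Among all 19938 named genes 39 passed higher and 38 lower, with 630 above and 745 below every control.

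*Ptgds* makes prostaglandin D2 and had the largest fall among the probesets that passed. It read 8.68, 8.93 and 8.81 in the deleted hearts against 9.85 to 10.64 (median 10.19), below every control. The difference was -1.42 (SE 0.15, 2.68-fold lower, adjusted p = 0.00743).

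*Fgf16* encodes a fibroblast growth factor made by cardiomyocytes. It read 6.20, 6.48 and 5.84 against 7.26 to 7.42 (median 7.31). The deleted hearts were spread more widely than the controls and were all below them, with a difference of -1.15 (SE 0.12, 2.22-fold lower, adjusted p = 0.0061). Of 27 angiogenic factors, *Fgf16* passed lower and *Vegfd*, a vascular endothelial growth factor of lymphatic vessels, passed higher (7.28, 7.44 and 7.24 against 6.27 to 6.67, difference 0.81, SE 0.10, adjusted p = 0.0136). *Vegfd* lost the call without each deleted heart (adjusted p of 0.0727 to 0.0837). The median of the list was 0.01, and *Vegfa* overlapped (-0.14, adjusted p = 0.56). *Egf*, epidermal growth factor, also fell, from 6.86 to 7.36 (median 6.97) in the controls to 6.16, 6.23 and 6.14 (difference -0.85, SE 0.10, adjusted p = 0.0136).

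Among genes of sugar and glycerol metabolism, *Gyg*, glycogenin, the primer of glycogen chains, read 10.70, 10.72 and 10.70 against 9.65 to 9.85 (median 9.73). It was above every control with the smallest spread of the named genes that rose, and the difference was 0.97 (SE 0.06, 1.96-fold, adjusted p = 0.000341). *Gpd1*, cytosolic glycerol-3-phosphate dehydrogenase, read 7.18, 7.29 and 7.15 against 8.16 to 8.59 (median 8.26). It was below every control, with a difference of -1.11 (SE 0.10, adjusted p = 0.00323). These were the members of the list of 24 genes of glycolysis, glycogen and glycerol phosphate that passed (median -0.01). Of the 24, 3 lay above every control and 4 below, which put 29.2% outside the control range, beside 6.9% of all named genes. Without passing, *Pfkfb2* (-0.67, adjusted p = 0.0585) and *Eno3* (-0.33, adjusted p = 0.0577) were below every control and *Phka1* (0.225) was above. In the cholesterol pathway, *Cyp51* (-0.48, adjusted p = 0.0128) and *Fdft1* (-0.55, adjusted p = 0.0358) fell, and *Cyp51* lost the call without each deleted heart (up to 0.0795).

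*Myocd* encodes myocardin, a coactivator of serum response factor in heart and smooth muscle. It read 8.13, 8.12 and 8.07 against 8.74 to 9.12 (median 8.87). All deleted hearts were below all controls, by at least 0.60, with a difference of -0.78 (SE 0.09, 1.72-fold lower, adjusted p = 0.0102). It was the only one of 26 cardiac transcription factor genes to pass, and the median of the list was 0.03. In this list 1 gene lay above every control without passing (*Hey1*, 0.27) and 4 lay below. This put 19.2% outside the control range, beside 6.9% of all named genes. Those below were *Myocd* and, without passing, the Iroquois genes *Irx5* (-0.39, adjusted p = 0.179), *Irx3* (-0.38, adjusted p = 0.189) and *Irx4* (-0.28, adjusted p = 0.208). The other Iroquois genes measured, *Irx1*, *Irx2* and *Irx6*, overlapped, as did *Hey2* (0.21, adjusted p = 0.713). *Acta2*, smooth muscle actin, was above every control at 1.04 (SE 0.17, adjusted p = 0.0577) without passing.

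Of 18 genes of ion channels and gap junctions, 1 passed lower, 0 higher, and 7 were below every control with a median of -0.26. Over all 19938 named genes, 38 passed lower, 39 higher, and 745 were below every control. *Hcn2*, a pacemaker channel, read 7.21, 7.46 and 7.20 against 7.70 to 8.09 (median 7.97). It was below every control (-0.64, SE 0.10, adjusted p = 0.04), and lost the call in 8 of 9 fits with 1 array left out (adjusted p up to 0.216, without *Gata4*-deleted heart 3). *Kcnip2*, a subunit of the transient outward potassium channel, was next (-0.63, adjusted p = 0.081), and connexin 43 (*Gja1*) was at -0.30 (adjusted p = 0.167). *Rnf207*, a RING finger protein known for its part in cardiac repolarization, read 7.29, 7.28 and 7.21 against 7.99 to 8.20 (median 8.03), below every control (-0.80, SE 0.07, adjusted p = 0.00187).

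The rest of the 24 ranked genes are given by their differences alone. *Bhlhb9* was higher by 1.17 (SE 0.09, adjusted p = 0.00187), *P3h2*, a collagen prolyl 3-hydroxylase, by 1.12 (SE 0.14, adjusted p = 0.0126), *Tmem196* by 1.18 (SE 0.15, adjusted p = 0.0149) and *Spink4* by 1.10 (SE 0.14, adjusted p = 0.016). *Klhdc8a* was at -1.12 (SE 0.13, adjusted p = 0.00973), *Car14*, a membrane-bound carbonic anhydrase, at -0.96 (SE 0.09, adjusted p = 0.00301) and *Strip2* at -0.94 (SE 0.09, adjusted p = 0.00311). *Mapk10*, the stress kinase JNK3, was at -0.79 (SE 0.06, adjusted p = 0.00187) and *Lrrc1* at -0.76 (SE 0.08, adjusted p = 0.00723). In each of these genes all 3 deleted hearts lay outside the control range.

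Of the 24 ranked genes, 15 kept the call in all 9 fits that left out 1 array, and 9 lost it, in each case without a deleted heart. Without *Gata4*-deleted heart 1, 2 and 3 the adjusted p of *Myot* was 0.0536, 0.0502 and 0.0631, of *Ptgfr* 0.0923, 0.0876 and 0.0842 and of *Tmem196* 0.0909, 0.0901 and 0.0933. In the same order it was 0.0909, 0.0713 and 0.0901 for *Egf* and 0.0595, 0.0633 and 0.0757 for *Myocd*. *P3h2* lost the call without heart 2 (0.0633), and *Spink4* without heart 2 (0.055) and heart 3 (0.0943). *Ptgds* lost it without heart 1 (0.059) and heart 3 (0.0646), and *Klhdc8a* likewise (0.072 and 0.0727). Of 31 other passing genes examined in this way, 27 lost the call in at least 1 fit.

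Genes of macrophages were lower as a list, though none of the 16 markers passed. All 16 had a difference below 0, the median was -0.36, and 6 were below every control, among them *Adgre1* (-0.60, adjusted p = 0.213) and *C1qc* (-0.45, adjusted p = 0.156). Of all 19938 named genes, 9428 had no difference above 0 and 745 were below every control. *Adgre1* and *Ptprc* also belong to a table that the study chose on these arrays, so the list is not independent of them. The mean level of the 16 markers was 7.25 to 7.47 in the controls and 6.98 to 7.09 in the deleted hearts. In whole hearts, fewer cells of a type and less RNA per cell cannot be told apart. *Msr1*, the macrophage scavenger receptor, passed at -0.53 (SE 0.07, adjusted p = 0.0136), losing the call without each deleted heart (up to 0.087), and *Syk*, a kinase of immune receptors, at -0.58 (SE 0.09, adjusted p = 0.0455), losing it in each of 9 fits. The part of the marker levels in these differences was not tested.

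The plot of gene lists shows the lists of pathways and cell types with their members and medians. As the background for these counts, 39 of all 19938 named genes passed higher and 38 lower, and 630 lay above and 745 below every control. Among genes of detoxification, 1 of 22 passed, *Gsta3*, a glutathione transferase (0.81, SE 0.11, adjusted p = 0.0194), with 8 above every control and 1 below (*Cyp4b1*, -0.37). Those above included *Fmo2* (0.89, adjusted p = 0.0597) and catalase, *Cat* (0.51, adjusted p = 0.0545). *Gsta3* lost the call without each deleted heart (0.0685 to 0.107). It is also in the study's own array table and belongs to a family of near-identical genes, so how far its probes share signal with them is uncertain. None of 20 genes of the glucocorticoid response passed, though their median was 0.34, with 4 above every control and 1 below (*Lcn2*, -0.60), and the lowest was *Mt2* at -1.09. The mean level of the 20 was 8.05 to 8.15 in the deleted hearts, inside the 7.58 to 8.23 of the controls. Some of them, such as *Fkbp5*, *Tsc22d3* and *Zbtb16*, are also in the study's own array table. Of 51 measured genes of the study's own array table, 6 passed higher and 2 lower, with 20 above and 9 below every control. That table was chosen on these arrays and is not independent evidence.

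**Figure D3:**
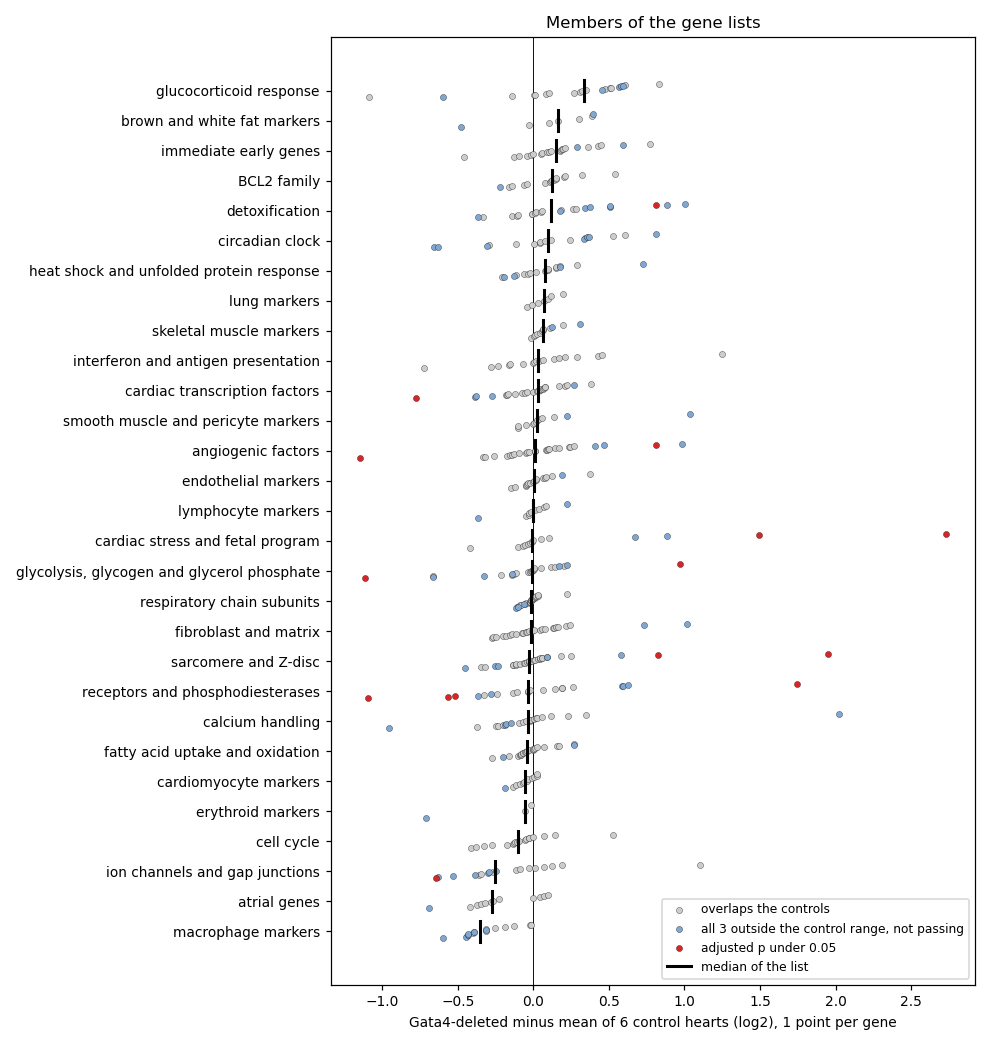
Each point is 1 gene of a list, at its log2 difference between Gata4-deleted hearts and the mean of 6 control hearts, with red for genes that passed, blue for genes outside the control range without passing and grey for genes that overlap. Black ticks are list medians, lowest in macrophage markers (-0.36) and highest in the glucocorticoid response (0.34).

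The genes next to *Gata4* on its chromosome lie by the floxed locus. They were looked at after values had been seen, so this was not a planned test of the locus. *Neil2*, a DNA repair glycosylase and the adjacent gene, was higher (5.08, 5.39 and 5.28 against 4.33 to 4.82, difference 0.74, SE 0.11, adjusted p = 0.0419). The next gene, *Fdft1*, squalene synthase, was lower (8.18, 8.27 and 8.01 against 8.60 to 8.83). Every deleted heart was outside the control range in both. Against *Gata4* floxed hearts alone, which also carry the floxed gene, the differences were 0.73 and -0.52 (adjusted p = 0.212 and 0.146). The other 17 measured genes among the 10 on each side had 0 that passed, with differences of -0.34 to 0.20. *Neil2* lost the call in 8 of 9 and *Fdft1* in 9 of 9 fits with 1 array left out (adjusted p up to 0.215 and 0.181). Elsewhere, 78 passing genes could be placed, and 3 further pairs lay next to each other or with 1 gene between. They were *Gpd1* with *Smarcd1* (-0.63), a chromatin remodelling subunit, *P3h2* with *Trp63* (0.58), and *Six4* with *Trmt5* (-0.76), a tRNA methyltransferase.

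*Mir490*, a miRNA gene within an intron of the muscarinic receptor gene *Chrm2*, was lower. Its 2 mature arms (RefSeq, GRCm38.p6, chr6:36421763-36421782 and chr6:36421800-36421821, plus strand) are shown with the seed, bases 2 to 8, in capitals, because the seed sets which mRNAs an arm pairs with.
mmu-miR-490-5p: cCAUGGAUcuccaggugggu
mmu-miR-490-3p: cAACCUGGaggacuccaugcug
The probeset does not tell the arms or the precursor apart. It read 5.95, 6.22 and 5.89 against 6.56 to 6.92 (median 6.81), below every control, with a difference of -0.76 (SE 0.10, adjusted p = 0.0209). The call was lost in 6 of 9 fits with 1 array left out, with an adjusted p up to 0.145 without *Gata4*-deleted heart 1. The host gene *Chrm2* overlapped (10.47, 10.58 and 10.45 against 10.52 to 10.78, adjusted p = 0.576).

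Some genes had several probesets, and these did not all pass. *Myo18b*, a myosin of muscle, had 20 probesets, of which 5 passed (-0.43 to -0.39) and 19 were below 0. *Adamts3*, a procollagen protease, had 16, all below 0, of which 2 passed (-0.70 and -0.62). Both probesets of *Prune2* passed (-1.08 and -0.74). *Tmem196*, *Fdft1* and *Mapk10* had 1 passing probeset of 2, with the other at 0.25, -0.58 and -0.08.

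Each control line was also compared with the deleted hearts on its own, since the lines differ in genotype. Against *Gata4* floxed hearts 26 probesets passed (0.0731%), 16 of them among the 98. Against cre hearts 85 passed (0.239%), 31 among the 98, and against *Gata6* floxed hearts 281 (0.79%), 48 among the 98. All 24 ranked genes had the same direction against each of the 3 lines, as the plot by control line shows. The range between lines was widest for *Ptgfr*, at 1.35 against *Gata4* floxed and 2.13 against *Gata6* floxed hearts, and among the narrowest for *AW551984*, at 2.29 to 2.37.

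**Figure D4:**
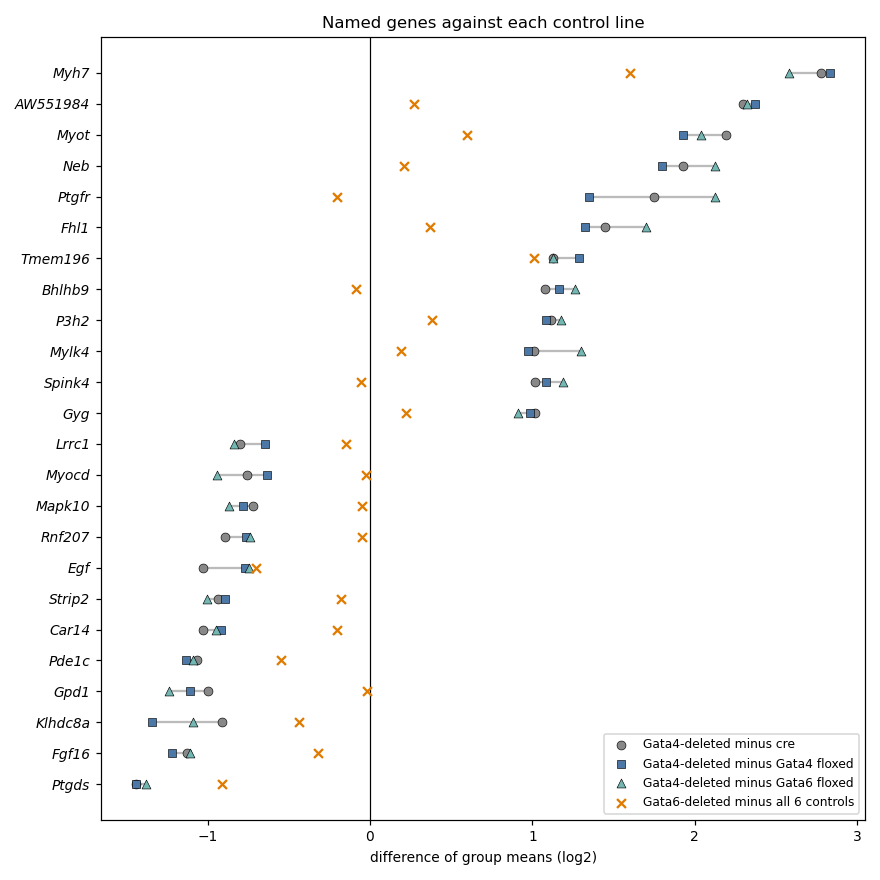
For each of the 24 ranked genes, the difference of group means (log2, x axis) between Gata4-deleted hearts and each control line is shown as a circle (cre), square (Gata4 floxed) or triangle (Gata6 floxed), joined by a grey line, and the difference between Gata6-deleted hearts and all 6 controls as an orange cross. All 3 control lines give the same sign for every gene, which the choice of genes outside the control range fixed in advance. For Tmem196 (1.01) and Egf (-0.70) the cross lies near the other symbols.

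Genes that passed against *Gata4* floxed hearts but not against all controls show what pooling changes. *Ciart*, which encodes a circadian repressor, read 6.81 and 7.08 in *Gata4* floxed hearts and at least 8.88 in each of the other 4 controls, and the deleted hearts at 8.89, 8.54 and 8.41 overlapped with the controls. Its difference was 1.67 against *Gata4* floxed hearts (adjusted p = 0.0311) and 0.34 against all controls (SE 0.54, adjusted p = 0.883), and the control lines differed (F test, adjusted p = 0.0099). *Per1* was of the same kind (1.44 and 0.61, adjusted p = 0.0279 and 0.63). *Per2* was higher than every control (0.81, adjusted p = 0.353) and *Arntl*, a clock activator, lower than every control (-0.66, adjusted p = 0.545), though neither passed. *Gcnt1*, a glycosyltransferase, read 8.70, 8.71 and 8.80, above a control range of 5.79 to 7.34 that separated by line, and did not pass (1.98, SE 0.37, adjusted p = 0.0811). Of 18 clock genes 0 passed, with 4 above and 3 below every control (38.9% outside the control range, beside 6.9% of all named genes).

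**Figure D5:**
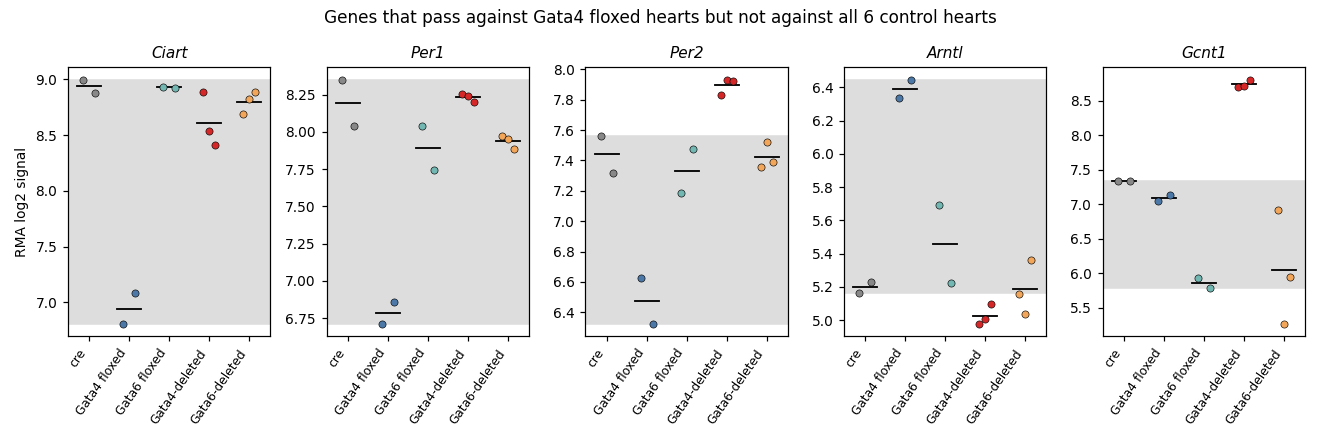
The RMA log2 signal of every heart (points), the group means (lines) and the range of the 6 control hearts (grey band) are shown for 5 genes that passed against Gata4 floxed hearts alone. Gata4 floxed hearts (blue) stand apart from the other controls in the 4 clock genes, whereas in Gcnt1 the Gata6 floxed hearts are lowest.

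The *Gata4*-deleted hearts were finally compared with *Gata6*-deleted hearts, to ask whether the named differences were shared by the other deletion. In a fit of all 12 arrays, 133 probesets differed between the deletions (0.374%), 40 higher and 93 lower in *Gata4*-deleted hearts. Among the 98, 37 also passed this direct test. Both comparisons use the same 3 *Gata4*-deleted hearts, so the direct test is not independent of the choice of the 98. The count of 133 was 130, 152 and 91 without cre heart 1, *Gata6* floxed heart 2 or *Gata6*-deleted heart 1, and 9 to 48 without any 1 of the other 9 arrays. Of the 24 ranked genes, 18 passed the direct test, among them *AW551984* (2.06, SE 0.14, adjusted p = 0.000209), *Ptgfr* (1.94, adjusted p = 0.0143), *Neb* (1.74, adjusted p = 0.00324), *Gyg* (0.75, adjusted p = 0.00218) and *Gpd1* (-1.10, adjusted p = 0.0189).

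The other 6 did not pass: *Myh7* (1.13, SE 0.30, adjusted p = 0.206), *Tmem196* (0.17, adjusted p = 0.813), *P3h2* (0.74, adjusted p = 0.0725), *Ptgds* (-0.51, adjusted p = 0.507), *Klhdc8a* (-0.68, adjusted p = 0.114) and *Egf* (-0.15, adjusted p = 0.858). *Myh7* read 10.82, 11.22 and 11.95 in *Gata6*-deleted hearts. All of them were above the 6 controls and below the *Gata4*-deleted hearts. Both deletions share the same 6 controls, so their differences are given side by side only. Against those controls *Gata6*-deleted hearts had 72 passing probesets (0.202%), and 4 of the 98 were among them, from *Myh7* (1.60), *Tmem196* (1.01), *Pde1c* (-0.55) and *Prune2* (adjusted p = 0.0473 for each). The corresponding differences of *Gata4*-deleted hearts were 2.73, 1.18 and -1.09 for the first 3 of these.

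The last genes were taken from the study's text. *Drd2*, a dopamine receptor, read 4.96, 5.29 and 5.41 in *Gata4*-deleted hearts against 5.32 to 5.54 in the controls, which overlapped (-0.24, adjusted p = 0.494), and 5.92 to 6.27 in *Gata6*-deleted hearts. The direct test gave -0.87 (SE 0.12, adjusted p = 0.0204). *Irx5* differed by -0.72 (adjusted p = 0.0401), *Hey2* by 0.79 (adjusted p = 0.0836), and *Adh1*, whose control lines differed (F test, adjusted p = 0.0468), by 0.14 (adjusted p = 0.948).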

How the data were processed

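Log2 signals of 12 whole hearts (Affymetrix mouse gene ST arrays) were used as the authors deposited them, after RMA (background correction, normalization and summary per probeset), whose version, annotation and build are not given in the sources used here. A second table with 12 columns of relative expression that match no sample label was not used. Of 35557 probesets, 21789 had 1 symbol in the platform's probe table (19938 genes), 1621 several and 12147 were not listed there. Lists give a gene by its brightest probeset. GRCm38.p6 served for names, neighbours and the printed sequences.

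The two-sided tests used limma 3.58.1 in R 4.3.3, 3 hearts against 6 (7 residual and 2.45 prior degrees of freedom), with Benjamini-Hochberg adjustment over all probesets, and were tested on simulated data. Group means of 4 groups gave the comparisons with each line and the F test, and 3 groups of 12 arrays the direct test. P-values measure the spread between these mice, and their number limits the precision.

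Named genes were the 12 highest and 12 lowest differences among passing probesets with 1 symbol and all 3 hearts outside the control range, with each gene taken at its passing probeset of highest mean, genes of the paper's text, up to 2 at each end of each list, and up to 5 that passed against *Gata4* floxed hearts alone. Others were chosen after their values were seen. The comparison, members and lists were chosen with earlier results of these data known. Several lists share genes with a table the study chose on these arrays. Alternatives were other normalizations, filters, priors, control groups, blocks and thresholds, and each array left out.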

Additional observations from a re-analysis of the deposited data

Results flagged for a closer look

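Among 170 named genes, 6 had 1 control heart far from the other 5 by Dixon's test, which picks out about 1 in 20 groups by chance. *Neb* read 5.82 in *Gata6* floxed heart 2 against 6.33 to 6.53 in the other controls. *Fmo2* read 9.31 in cre heart 1 against 8.63 to 8.79. *Gata4* floxed heart 2 was high in the cell cycle genes *Ccna2* (6.15 against 4.65 to 5.21) and *Top2a* (6.42 against 4.99 to 5.49) and in the erythroid gene *Alas2* (8.60 against 6.78 to 7.39). The lung surfactant gene *Sftpb* read 5.43 in cre heart 2 against 5.63 to 5.73.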

How the results depend on the processing

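The count of 98 passing probesets was 94 with quantile normalization and 76 with median centring, and 84 with mouse line as a random block. It rose to 223 with only the brighter probesets, 176 with a trend and robust prior, 295 with 5 group means of 12 arrays, 154 with 4 group means of 9 arrays, 223 with probesets averaged per gene and 200 at an adjusted p under 0.1. It fell to 27 at an adjusted p under 0.01 and 61 with a 1.5-fold minimum. The methods' t-test gave 3343 at its unadjusted threshold and 57 after Benjamini-Hochberg. With *Gata4* floxed, cre or *Gata6* floxed hearts as the only controls it was 9, 17 and 19. With cre and *Gata4* floxed, both floxed lines, or cre and *Gata6* floxed hearts it was 47, 23 and 57. Leaving out each array gave 24 to 71.

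The count outside the control range was 2527 to 5229 with 1 array left out. The count differing among control lines was 245 with only brighter probesets, 205 with a trend and robust prior and 10 to 314 with 1 array left out. The direct count of 133 was 203 with only brighter probesets, 384 with 5 group means and 9 to 152 with 1 array left out.

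Same-numbered hearts of different groups did not deviate together (correlations of -0.10 to 0.04), so the numbers do not pair them. With the replicate number as a block, 9 probesets passed against the controls and 16 in the direct test. No control was numbered 3, so against the controls this block also took *Gata4*-deleted heart 3 out of the comparison. Of 55 named genes that passed, 3 lost the call with quantile normalization (*Tnnt1*, *Syk* and *Neil2*), 7 with median centring (among them *Hcn2*, *Pde3a* and *Fdft1*), 5 with mouse line as a random block and 46 with the replicate block. No named gene reversed its direction as a call under any alternative run. All 3 deleted hearts lay outside the control range in every passing gene, so leaving out arrays or controls could not reverse those. Of the 170 named genes, up to 13 changed sign without a call, with cre or *Gata6* floxed hearts as the only controls. The deposited values carry no depth or detection call, so dim signals cannot be told from background.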
